A study of Mus musculus with 8 samples.

Results

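The 7 globin genes that make up mouse hemoglobin were followed in RNA sequencing libraries of embryonic ventricular tissue. The alpha-globin genes were Hba-x (zeta, embryonic), Hba-a1 and Hba-a2 (adult), and the beta-globin genes were Hbb-y (epsilon-y, embryonic), Hbb-bh1 (beta-h1, embryonic), Hbb-bs and Hbb-bt (adult). They were chosen by symbol, as rows on primary chromosomes, and are 7 of the 52778 rows of the deposited table. The study deleted Rps19bp1, whose product binds ribosomal protein S19, and compared steady-state RNA in 4 libraries of conditional knockout embryos (cKO; both Rps19bp1 alleles floxed, genotype Rps19bp1 fl/fl; Xmlc2-Cre +/−) with 4 control libraries, all collected at embryonic day 11.5. The Xmlc2 promoter drives Cre in cardiomyocytes, so the labels do not make the red cells of a cKO heart a target of the deletion. The Cre and floxed alleles of the controls are not given, and all 8 libraries carry one batch label. The genotype field reads C57BL/6 wild type for all 8, which conflicts with the cKO titles by which the libraries were grouped. Values are TPM (read numbers per transcript length, set to the same total in every library), a unit that keeps no sequencing depth, so the depth behind each value is unknown.

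Hemoglobin is a tetramer of a pair of alpha-type and a pair of beta-type chains, each holding a heme. In the mouse, the first red cells arise in the yolk sac and circulate through the heart as large, still nucleated, primitive erythroblasts that make embryonic chains. Embryonic chains give way to adult chains as primitive cells mature and as definitive red cells made in the fetal liver enter the blood. In both gene clusters the embryonic genes lie nearest to the distant enhancers that act on the promoters. Red cells are the main source of globin RNA, which reaches a dissected ventricle with the blood it holds. In bulk tissue, fewer red cells and less globin RNA per red cell cannot be told apart.

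The alpha cluster lies on the plus strand of chromosome 11 and the beta cluster on the minus strand of chromosome 7 (GRCm38 coordinates, as the deposited table lists them). Hba-x spans chr11:32276600-32278116, Hba-a1 chr11:32283672-32284486 and Hba-a2 chr11:32296492-32297310. Hbb-y spans chr7:103851754-103853207, Hbb-bh1 chr7:103841638-103843162, Hbb-bs chr7:103826523-103827928 and Hbb-bt chr7:103812524-103813923. Each gene has 3 exons in the GENCODE M21 annotation, and no other row of the table overlaps any of them. Hbb-y and Hbb-bh1 each have a second row on an alternate scaffold, listed at 0 in all 8 libraries.

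How well the 7 genes can be told apart depends on their sequences, which were compared over the coding sequences of the GENCODE M21 transcripts (429 bases for each alpha gene, 444 for each beta gene). The adult copies are almost the same: Hba-a1 and Hba-a2 differ at 1 coding base (99.77% identity) and share an unbroken run of 415 transcript bases, and Hbb-bs and Hbb-bt also differ at 1 (99.77%) with a shared run of 430. Bases 356 to 406 of the coding sequence of Hba-a1 and Hba-a2, and bases 392 to 442 of Hbb-bs and Hbb-bt, are shown 5′ to 3′ with the differing base in capitals.
Hba-a1: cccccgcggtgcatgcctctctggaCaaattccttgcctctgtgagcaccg
Hba-a2: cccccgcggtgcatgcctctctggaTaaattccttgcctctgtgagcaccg
Hbb-bs: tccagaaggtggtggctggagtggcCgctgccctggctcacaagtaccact
Hbb-bt: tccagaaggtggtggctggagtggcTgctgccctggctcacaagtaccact
Counted from the A of the start codon, with the first-named gene's base first, the differences are C381T between Hba-a1 and Hba-a2 (chr11:32284343 and chr11:32297160) and C417T between Hbb-bs and Hbb-bt (chr7:103826692 and chr7:103812683). Both fall in exon 3, at the third base of a codon. How reads that match both copies were assigned is not given in the sources used here, so the split within each adult pair is uncertain. If such reads were left out of the counts, the sums over each pair and the shares that use them are uncertain too, and this was not tested.

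The embryonic genes differ far more from each other and from the adult ones. Hba-x differs from Hba-a1 at 163 coding bases (62.0% identity, longest shared run 18 bases). Hbb-y differs from Hbb-bh1 at 105 (76.35%, run of 26) and from Hbb-bs at 114 (74.32%, run of 22). The first 90 coding bases of both comparisons are shown because embryonic and adult chains, and both embryonic beta chains, can be counted apart on such sequence; capitals mark the 44 bases at which Hba-x and Hba-a1 differ and the 30 at which Hbb-y and Hbb-bh1 differ.
Hba-x: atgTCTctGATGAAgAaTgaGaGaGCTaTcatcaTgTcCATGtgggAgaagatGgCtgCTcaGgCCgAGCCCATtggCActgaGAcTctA
Hba-a1: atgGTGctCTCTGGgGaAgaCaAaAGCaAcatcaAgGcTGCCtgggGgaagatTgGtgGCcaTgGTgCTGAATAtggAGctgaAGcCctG
Hbb-y: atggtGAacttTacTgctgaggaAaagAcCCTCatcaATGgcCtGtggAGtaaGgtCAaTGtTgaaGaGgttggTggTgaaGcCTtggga
Hbb-bh1: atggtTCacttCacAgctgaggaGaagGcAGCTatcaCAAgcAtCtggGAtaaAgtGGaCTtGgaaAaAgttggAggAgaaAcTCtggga

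Upstream sequence is given as a description of the genes, and its part in their RNA levels was not tested. The 250 bases before the start of 6 of the 7 genes were found in the RefSeq promoter table (GRCm38.p6); Hbb-bh1 was not matched. They were searched on both strands for CACCC (bound by Klf1), CCAAT (the CCAAT box), GATAA (bound by Gata1) and TATAA (the TATA box), and no 2 matches overlapped. An embryonic and an adult gene of each cluster are shown on the gene's own strand, 5′ to 3′, with matches in capitals. The windows are chr11:32276350-32276599 for Hba-x, chr11:32283422-32283671 for Hba-a1, chr7:103853208-103853457 for Hbb-y and chr7:103827929-103828178 for Hbb-bs.
Hba-x: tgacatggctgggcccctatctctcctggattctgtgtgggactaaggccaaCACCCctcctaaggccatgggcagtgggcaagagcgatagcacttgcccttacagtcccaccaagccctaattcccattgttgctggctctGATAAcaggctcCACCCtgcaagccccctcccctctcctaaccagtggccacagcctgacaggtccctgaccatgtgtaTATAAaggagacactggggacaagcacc
Hba-a1: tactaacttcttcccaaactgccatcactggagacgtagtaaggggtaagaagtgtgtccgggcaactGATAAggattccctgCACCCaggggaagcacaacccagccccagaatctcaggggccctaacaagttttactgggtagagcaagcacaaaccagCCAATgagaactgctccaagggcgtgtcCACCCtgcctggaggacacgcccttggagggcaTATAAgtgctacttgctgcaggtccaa
Hbb-y: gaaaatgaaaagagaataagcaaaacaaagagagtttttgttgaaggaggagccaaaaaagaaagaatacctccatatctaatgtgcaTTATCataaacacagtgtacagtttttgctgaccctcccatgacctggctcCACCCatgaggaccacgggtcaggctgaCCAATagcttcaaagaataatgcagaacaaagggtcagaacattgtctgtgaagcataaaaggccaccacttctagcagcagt
Hbb-bs: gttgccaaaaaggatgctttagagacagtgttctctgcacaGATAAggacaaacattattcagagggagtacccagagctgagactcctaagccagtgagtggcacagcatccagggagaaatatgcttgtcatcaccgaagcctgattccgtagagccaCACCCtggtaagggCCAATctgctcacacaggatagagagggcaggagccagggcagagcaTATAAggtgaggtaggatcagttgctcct
All 4 motifs were found upstream of Hba-a1, Hba-a2, Hbb-bs and Hbb-bt. The Hba-x window holds no CCAAT letters and the Hbb-y window no TATAA letters. In Hbb-y the match to GATAA lies on the opposite strand, where it reads TTATC, 158 to 162 bases before the start. Among 32851 windows of the same length, 52.01% hold CACCC, 33.85% CCAAT, 22.58% GATAA and 22.78% TATAA, and 0.97% hold all 4. A match describes letters in the window, not a bound site.

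The labels were checked first. Rps19bp1 stood at 15.2, 11.8, 13.7 and 19.2 TPM in cKO libraries 1 to 4 and at 40.9, 44.2, 34.7 and 40.05 TPM in control libraries 1 to 4, so the groups did not overlap (log2 change −1.37, SE 0.127, limma adjusted p = 0.000508). The extraction text in the labels speaks of cortical neurons, whereas 15 cardiomyocyte genes summed to 52607 to 55192 TPM in cKO and 53112 to 57671 TPM in control.

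Embryonic globins were the most abundant. Hbb-y, the main embryonic beta chain, had the highest TPM of the 7 genes in every library, at 1518, 959, 709 and 1373 TPM in cKO libraries 1 to 4 and 783, 1379.6, 1256 and 2857 TPM in control libraries 1 to 4. Hba-x, the embryonic alpha chain, followed at 999, 626, 459 and 821 TPM in cKO and 488, 825, 798 and 1872 TPM in control. Control library 4 was the highest of the 8 for both genes and cKO library 3 the lowest, and the groups overlapped. Hbb-bh1, the earlier of the embryonic beta chains in development, was less abundant, at 359, 199.96, 166 and 308 TPM in cKO and 229, 314, 349 and 768 TPM in control. Its groups overlapped too, with the same highest and lowest libraries.

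The adult alpha genes were abundant and the adult beta genes were not. Hba-a1 stood at 857, 528, 408 and 742 TPM in cKO libraries 1 to 4 and at 453, 724, 825 and 1608 TPM in control libraries 1 to 4. Hba-a2 stood at 566, 346, 263 and 505 TPM in cKO and at 269.7, 459, 275 and 989.6 TPM in control. Hba-a1 was above Hba-a2 in all 8 libraries, and Hba-x was above Hba-a1 in all but control library 3. Hbb-bt, the adult t chain, stood at 95.3, 61.1, 33.7 and 70.4 TPM in cKO and at 46.5, 78.5, 67.2 and 176 TPM in control. Hbb-bs, the adult s chain, stood at 58.05, 40.6, 56.4 and 44.0 TPM in cKO and at 39.8, 52.5, 40.4 and 104 TPM in control. Within a library the order was Hbb-y, Hba-x, Hba-a1, Hba-a2, Hbb-bh1, Hbb-bt and Hbb-bs, with 2 exceptions: control library 3, where Hba-a1 exceeded Hba-x and Hbb-bh1 exceeded Hba-a2, and cKO library 3, where Hbb-bs exceeded Hbb-bt.

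**Figure D1:**
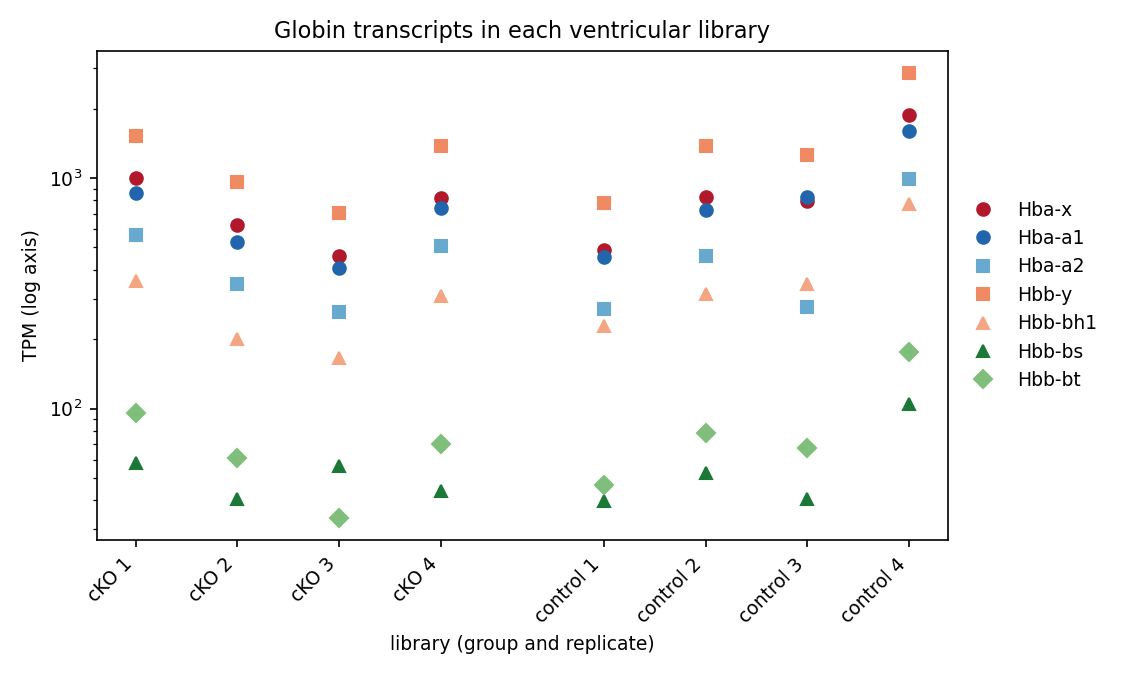
TPM of the 7 globin genes (log axis) in each of the 8 libraries, 1 marker per gene and library. The markers keep nearly the same order in every library while most of them move up and down together, Hbb-bs least closely. Hbb-y runs from 709 TPM in cKO library 3 to 2857 TPM in control library 4.

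The amount of globin RNA varied between libraries of one group. The 7 genes summed to 4452, 2761, 2094 and 3862 TPM in cKO libraries 1 to 4 and to 2309, 3832, 3610 and 8376 TPM in control libraries 1 to 4, from 0.209% to 0.838% of a library. The lowest sum came from a cKO library and the next lowest from a control library. Control library 4 stood at 8376 TPM when the other 3 control libraries had a mean of 3250 ± 823 TPM (SD, n = 3). With that library the control mean was 4532 ± 2649 TPM (SD, n = 4), against 3292 ± 1063 TPM (SD, n = 4) in cKO. Neither the amount of blood left in the dissected ventricles nor its part in these sums was tested.

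No globin gene differed between cKO and control by limma's test on log2(TPM + 1) over all 15541 rows with a mean of at least 1 TPM. The fitted log2 change (cKO minus control) was −0.34 (SE 0.364, adjusted p = 0.624) for Hba-x, −0.36 (SE 0.357, adjusted p = 0.588) for Hbb-y and −0.60 (SE 0.350, adjusted p = 0.340) for Hbb-bh1, by limma. Among the adult genes it was −0.42 for Hba-a1, −0.09 for Hba-a2, −0.15 for Hbb-bs and −0.41 for Hbb-bt, with limma adjusted p between 0.512 and 0.916. The 95% intervals were wide: that of Hbb-y ran from −1.16 to 0.43 and that of Hba-a2 from −0.97 to 0.78. Of the 7 genes, 0 had a limma adjusted p under 0.05, where 6.4% of all tested rows had (2.16% higher and 4.23% lower in cKO), and 0 had an unadjusted limma p under 0.05, where 23.7% had. TPM of cKO and control overlapped for all 7, where 15.6% of all tested rows did not overlap.

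All 7 fitted changes were below 0, as were those of 55.8% of all tested rows, and their median was −0.36 against −0.02 over all tested rows. Each of the 3 other scalings kept these directions. The 7 values rest on the same 8 ventricular libraries and are not independent of each other. Control library 4 decided their size: without it the median was −0.02, and the changes of Hba-x (0.02), Hba-a2 (0.31) and Hbb-bs (0.16) were above 0. Without cKO library 3 the change of Hba-a2 was 0.11. With a score of red cell membrane genes as a covariate all 7 changes were above 0, from 0.080 for Hbb-bh1 to 0.62 for Hba-a2, and none passed (limma adjusted p between 0.151 and 0.768). Of the 18 genes in that score 15 were lower in cKO, and it includes Tmod1, also a heart muscle gene. The score is thus not independent of the group.

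**Figure D2:**
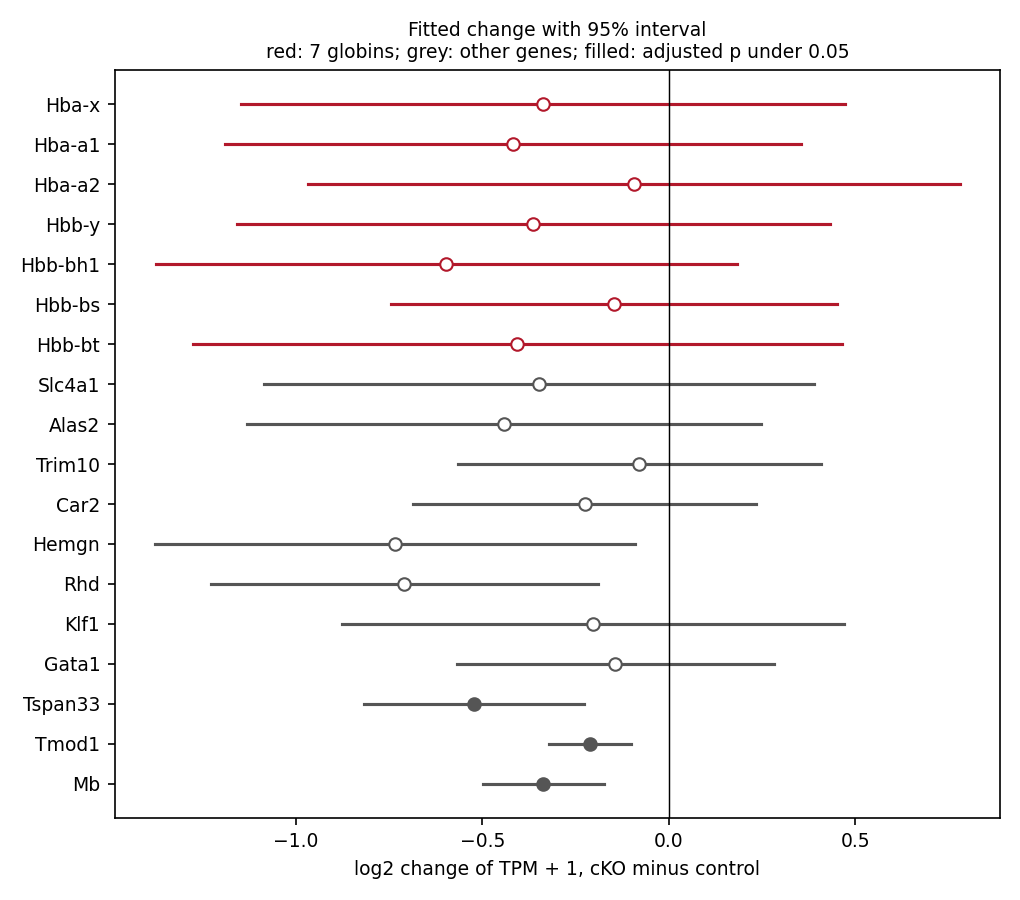
Fitted log2 change of TPM + 1 (cKO minus control, limma) with its 95% interval for the 7 globins (red) and 11 other blood or globin-fold genes (grey); filled points have an adjusted p under 0.05. All 7 globin intervals cross 0, with Hbb-bh1 farthest from it at −0.60.

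Taking each gene as a share of the 7 removes the amount of blood RNA from the comparison. Hbb-y made up 33.8% to 36.0% of summed globin TPM over the 8 libraries and Hba-x 21.1% to 22.7%. The adult alpha genes followed, Hba-a1 with 18.9% to 22.9% and Hba-a2 with 7.62% to 13.1%. Hbb-bh1 took 7.24% to 9.91%, Hbb-bt 1.61% to 2.21% and Hbb-bs 1.12% to 2.69%. The shares of Hbb-y and Hba-x moved little although the sum itself moved 4.0-fold. Those of Hba-a2 and Hbb-bs moved more for their size. The shares of 2 of the 7 genes did not overlap between cKO and control. TPM, a different measure that keeps the amount of blood RNA, overlapped for all 7 and did not overlap for 15.6% of tested rows. No like background was made for shares. Hbb-bh1 was lower in cKO (8.06%, 7.24%, 7.94% and 7.97% in libraries 1 to 4) than in control (9.91%, 8.20%, 9.66% and 9.17%). Hba-a2 was higher in cKO (12.7%, 12.5%, 12.5% and 13.1%) than in control (11.7%, 11.97%, 7.62% and 11.8%), but its value depends on the uncertain split from Hba-a1.

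**Figure D3:**
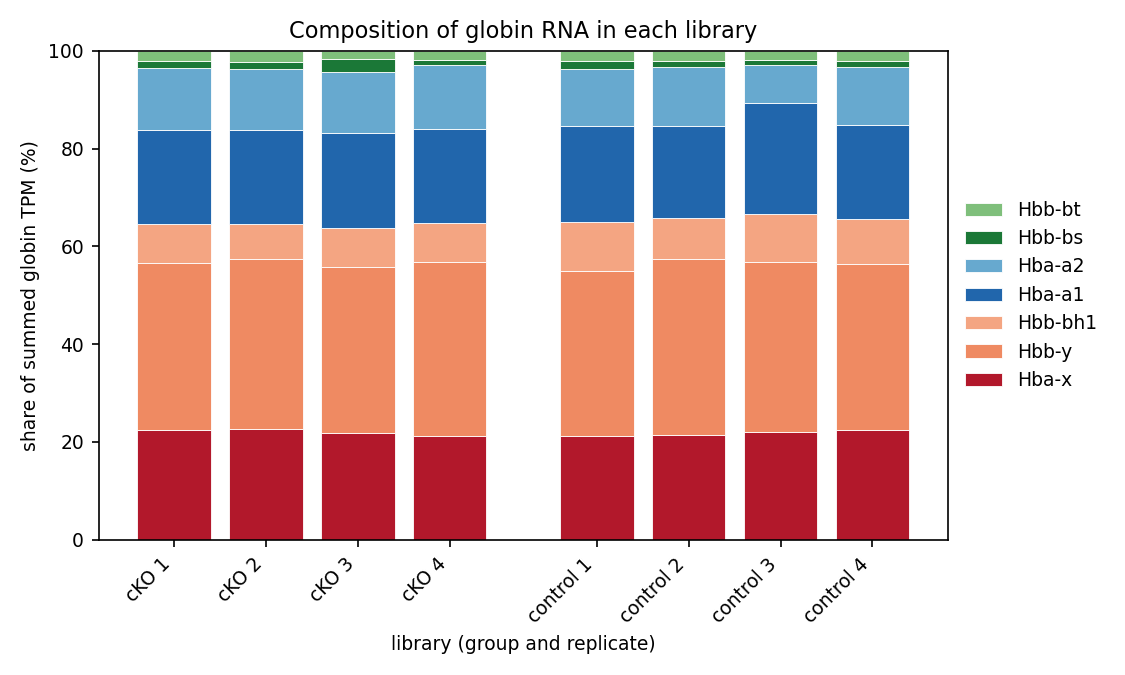
Share of each globin gene in summed globin TPM (%, stacked to 100) for the 8 libraries. Embryonic genes (red and orange) fill 63.7% to 66.5% of every bar, and control library 3 stands out by its wide Hba-a1 and narrow Hba-a2 segments.

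Embryonic chains dominated the beta side and not the alpha side. Hbb-y and Hbb-bh1 together made up 92.4%, 91.9%, 90.7% and 93.6% of beta-globin TPM in cKO libraries 1 to 4 and 92.1%, 92.8%, 93.7% and 92.8% in control libraries 1 to 4, so adult beta chains made up 6.28% to 9.33%. Hba-x made up 41.2%, 41.7%, 40.6% and 39.7% of alpha-globin TPM in cKO and 40.3%, 41.1%, 42.0% and 41.9% in control, so adult alpha chains made up 58.0% to 60.3%. Both shares overlapped between groups. The difference (cKO minus control) was −0.706 percentage points for embryonic beta (92.2% ± 1.23 against 92.9% ± 0.646, SD, n = 4, exact permutation p = 0.343) and −0.507 points for Hba-x (40.8% ± 0.863 against 41.3% ± 0.791, SD, n = 4, exact permutation p = 0.429).

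The share of all embryonic chains together differed slightly between groups without overlap. Hba-x, Hbb-y and Hbb-bh1 summed to 64.6%, 64.6%, 63.7% and 64.8% of globin TPM in cKO libraries 1 to 4 and to 64.96%, 65.7%, 66.5% and 65.6% in control libraries 1 to 4. The means were 64.4% ± 0.495 and 65.7% ± 0.645 (SD, n = 4), a difference of −1.29 points. Its exact two-sided permutation p was 0.0286, the smallest that 4 against 4 libraries allow. After Benjamini-Hochberg adjustment over the 5 shares tested it was 0.0714, so it did not pass 0.05. Whether a share at the smallest p passes this adjustment depends on how many other shares also reach that p. The adjusted value therefore cannot decide whether this share differed, and the same holds for the alpha share below. The gap between the nearest libraries, cKO 4 at 64.8% and control 1 at 64.96%, was smaller than either SD.

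The balance of alpha against beta chains showed a difference of like size. Alpha-globin made up 54.4%, 54.3%, 53.9% and 53.5% of globin TPM in cKO libraries 1 to 4 and 52.4%, 52.4%, 52.6% and 53.4% in control libraries 1 to 4. The means were 54.0% ± 0.401 and 52.7% ± 0.457 (SD, n = 4), with a difference of 1.35 points (exact permutation p = 0.0286, adjusted p = 0.0714). Within the embryonic beta pair, Hbb-bh1 took 19.1%, 17.25%, 19.0% and 18.3% in cKO and 22.6%, 18.6%, 21.7% and 21.2% in control, with control library 2 inside the cKO range. That difference was −2.61 points (18.4% ± 0.853 against 21.02% ± 1.74, SD, n = 4, exact permutation p = 0.0857, adjusted p = 0.143). Without control library 2, the embryonic share (−1.29 points), the alpha share (1.25 points) and the Hbb-bh1 share (−3.43 points) all passed (exact permutation, adjusted p = 0.0476). There the Hbb-bh1 share also reached the smallest possible p (0.0286), which lowered the adjusted p of the embryonic and alpha shares. Without any other single library none of the 5 passed.

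These shares have genes in common, and Hbb-bh1 enters 4 of the 5. In alternatives chosen after the values were seen, leaving Hbb-bh1 out of the sums moved the alpha difference from 1.35 to 0.562 points (exact permutation p = 0.286) and the embryonic difference from −1.29 to −0.814 points (exact permutation p = 0.171). Leaving out Hba-a1 and Hba-a2 instead moved the embryonic difference to −0.407 points (exact permutation p = 0.400).

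**Figure D4:**
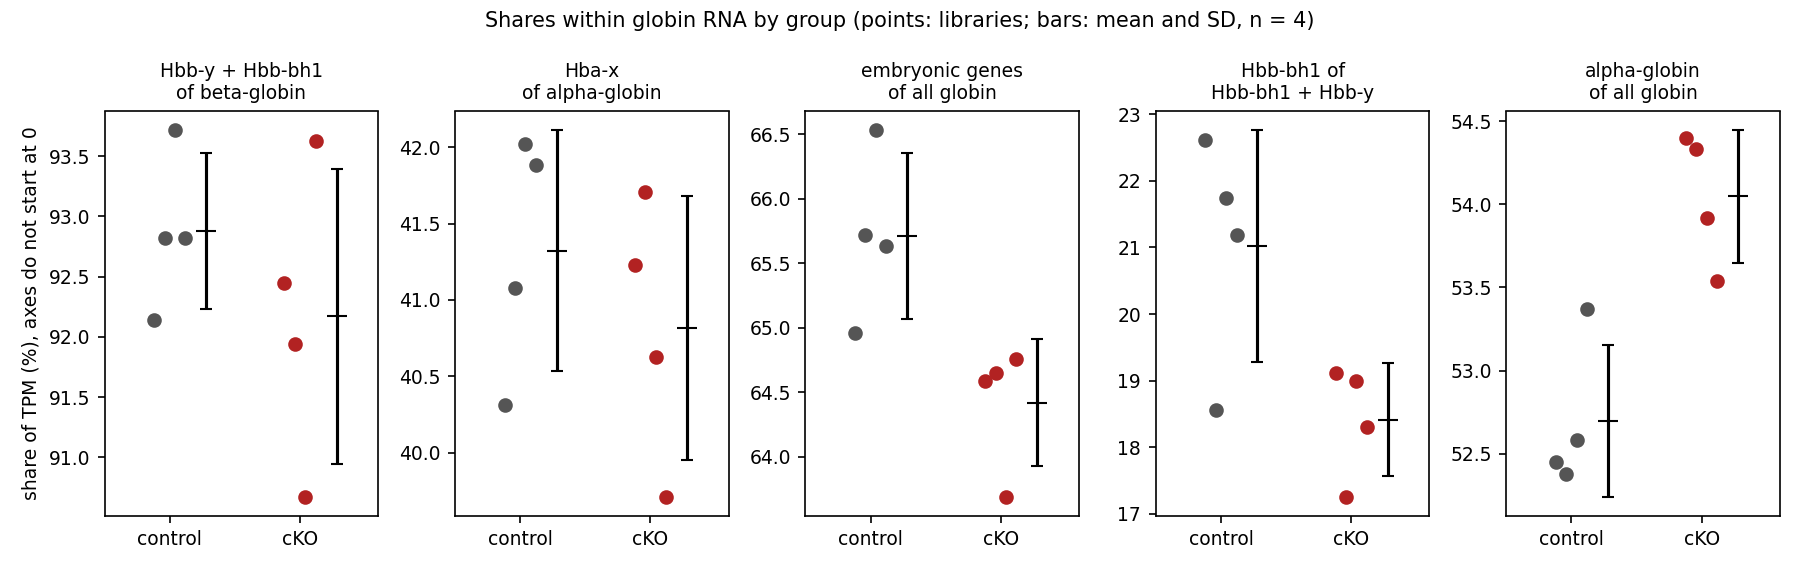
The 5 shares within globin TPM (%, axes not starting at 0) in control (grey) and cKO (red) libraries, 1 point per library, with mean and SD (n = 4). The groups separate for the embryonic share of all globin (64.4% against 65.7%) and the alpha share (54.0% against 52.7%) and overlap in the other 3 panels.

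The near-identical adult copies were split in a similar ratio in most libraries, with 1 library apart in each pair. Hba-a1 took 60.2%, 60.4%, 60.8% and 59.5% of the Hba-a1 and Hba-a2 sum in cKO libraries 1 to 4 and 62.7%, 61.2%, 75.0% and 61.9% in control libraries 1 to 4. Control library 3 stood apart at 75.0%, yet the sum of both genes as a share of alpha-globin was 58.0% there and lay between 58.1% and 60.3% in the other 7. Hbb-bs took 37.9%, 39.9%, 62.6% and 38.5% of the Hbb-bs and Hbb-bt sum in cKO and 46.1%, 40.1%, 37.5% and 37.3% in control. Here cKO library 3, the library with the least globin, stood apart at 62.6%. Whether the copies themselves or the assignment of shared reads differed in these libraries was not tested.

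Across the 8 libraries most of the globins rose and fell together, and some other red cell genes with them. The rows outside the 7 that are named below were picked for the highest likeness. Other red cell membrane genes did not follow. Aqp1 stood at 37.0 TPM in control library 1 and 25.2 TPM in control library 4, and Gypc only spanned 34.1 to 41.3 TPM. Likeness was measured as Pearson's r, over the 8 libraries, between log2(TPM + 1) of a row and log2 of summed globin TPM, as a description: all genes share the libraries and their blood content. The members, which are part of that sum, reached 0.999 (Hbb-y), 0.998 (Hba-x), 0.990 (Hba-a1), 0.982 (Hbb-bt), 0.973 (Hbb-bh1) and 0.926 (Hba-a2). Hbb-bs, with 0.753, was far down the ranking at place 259 of the tested rows. The most alike row outside the 7 was Slc4a1, the anion exchanger band 3 of the red cell membrane (r = 0.986, Spearman's rho = 0.905), at 17.2, 10.7, 9.01 and 12.99 TPM in cKO libraries 1 to 4 and 8.57, 14.4, 14.3 and 33.4 TPM in control libraries 1 to 4. Without the 2 libraries farthest from the median sum, cKO 3 and control 4, r of Slc4a1 was 0.972. The next rows were Hsd3b6, a hydroxysteroid dehydrogenase (0.981), Arrdc3, an arrestin-domain protein (0.976), Taf9, a subunit of the general transcription factor TFIID (0.954), and Trim10, an erythroid RING-finger protein (0.949). They were followed by Car2, carbonic anhydrase 2 (0.948), Fth1, ferritin heavy chain (0.947), Alas2, the first enzyme of heme synthesis in red cells (0.946), and Btd, biotinidase (0.944). Without the same 2 libraries these 8 lay between 0.800 and 0.959. Taf9 and Alas2 overlap other rows of the table, and the symbol Trim10 stands on 4 rows.

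Globin RNA per unit of red cell RNA was compared with 8 erythroid genes. Summed globin TPM was 232 to 297 times the TPM of Slc4a1 in cKO and 251 to 269 times in control. For Alas2 the ratios were 305 to 454 and 317 to 401. Both ranges overlapped, as did those of Hemgn, Trim10, Ermap, Klf1 and Gata1. Slc4a1, Alas2 and Trim10 are among the 10 rows most like summed globin in these same libraries. Steady ratios to them therefore restate that likeness and are no separate test of globin per red cell. Rhd, the mouse Rh blood group protein, was the only one of the 8 without overlap. Globin was 1451 to 1964 times its TPM in cKO and 934 to 1287 times in control. TPM itself, a different measure, did not overlap for 15.6% of all tested rows. No like background was made for ratios, so how rare such a lack of overlap is among them is unknown. Rhd itself stood at 2.57, 1.90, 1.15 and 1.97 TPM in cKO libraries 1 to 4 and 2.47, 3.53, 3.01 and 6.51 TPM in control libraries 1 to 4, a change of −0.71 that did not pass limma's test (adjusted p = 0.101).

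**Figure D5:**
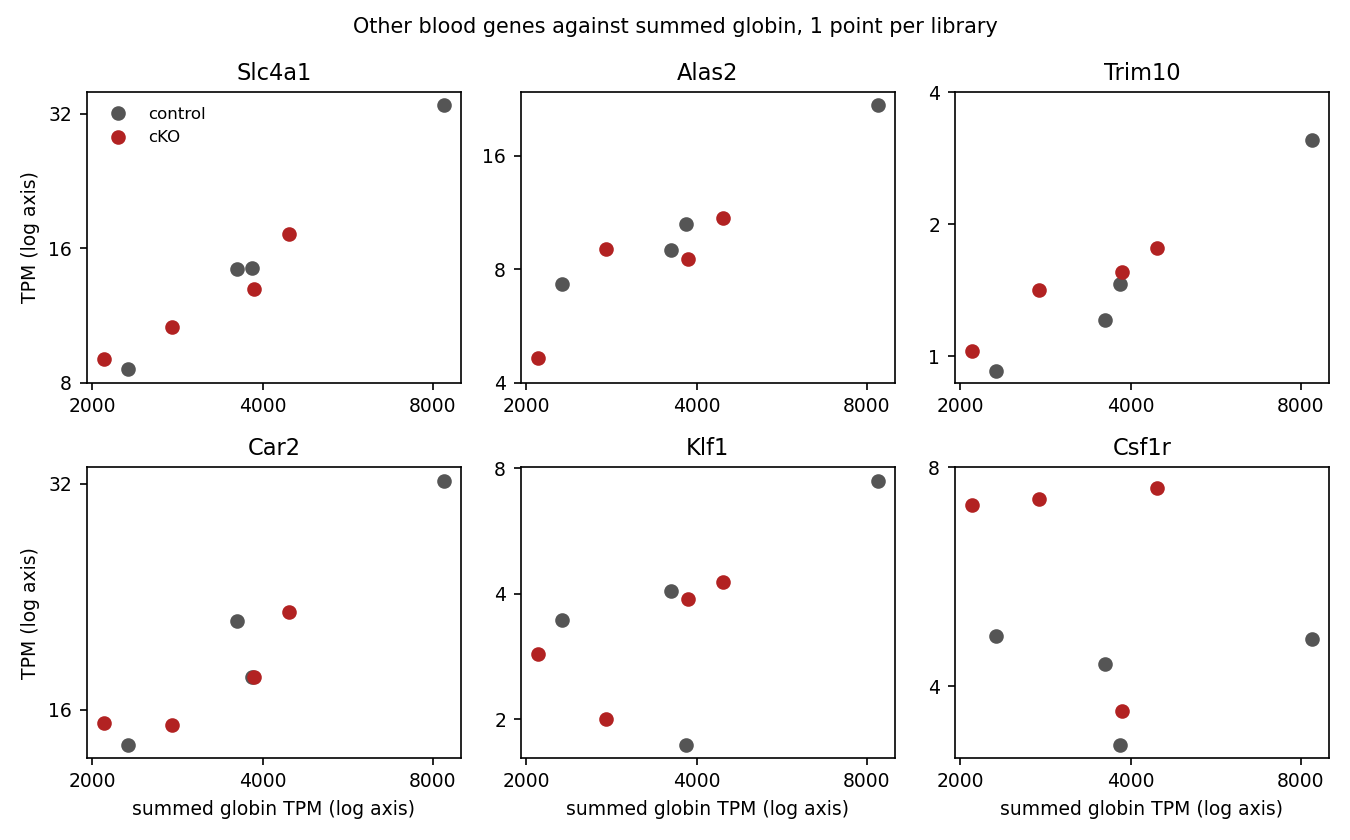
TPM of 5 erythroid genes and the macrophage gene Csf1r against summed globin TPM (both axes log), 1 point per library, control in grey and cKO in red. Slc4a1 rises with globin along one line for both groups (r = 0.986), while Klf1 scatters and Csf1r does not follow.

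The other genes of hemoglobin production were followed with lists written for heme, iron and red cells. As background, 55.8% of all tested rows had a change below 0, 6.4% were called, and the median change was −0.02. Heme synthesis, the mitochondrial and cytosolic pathway that makes the globin cofactor, had 10 tested genes, 8 lower and 0 called, with a median log2 change of −0.12. Among them were Cpox, coproporphyrinogen oxidase (−0.24, limma adjusted p = 0.0875), and Urod, uroporphyrinogen decarboxylase (−0.13, limma adjusted p = 0.197). Alas1 (43.7 to 54.1 TPM over the 8 libraries), Urod (46.7 to 57.7 TPM) and Fech (47.4 to 56.4 TPM) varied far less than summed globin. The list is thus not a measure of red cells alone. Iron uptake and mitochondrial import had 11 tested genes, 8 lower and 0 called (median −0.12). The transferrin receptor Tfrc stood at 54.4, 63.7, 52.6 and 63.8 TPM in cKO and 64.0, 71.3, 72.3 and 74.0 TPM in control, a change of −0.26 (limma adjusted p = 0.0698). Abcb10, a mitochondrial transporter (−0.19), and Tmem14c, a mitochondrial porphyrin transporter (−0.16), did not pass either. Tfrc, which cells other than red cells also use, spanned 52.6 to 74.0 TPM over the 8 libraries, against 4.64 to 21.9 TPM for the red cell enzyme Alas2.

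The transcription factors that drive globin genes did not pass the test. Of 10 tested erythroid factors, 7 were lower and 0 called (median −0.07), where 55.8% of all tested rows were lower and 6.4% called (median −0.02). Ldb1 (89.6 to 137 TPM), Zfpm1 (55.1 to 79.9 TPM) and Lmo2 (22.4 to 33.5 TPM) stood far above Gata1 and Klf1 and varied less. The count and median are thus not a measure of red cells alone. Klf1, which binds the CACCC box of adult beta-globin, stood at 4.27, 2.00, 2.87 and 3.88 TPM in cKO libraries 1 to 4 and 3.45, 1.74, 4.07 and 7.47 TPM in control libraries 1 to 4 (−0.20, limma adjusted p = 0.732). Gata1, the GATA factor of red cells, stood at 0.950 to 1.21 TPM in cKO and 0.658 to 2.31 TPM in control (−0.14, limma adjusted p = 0.698). Nfe2, the erythroid subunit of a factor that binds globin enhancers, had a change of −0.52 and Klf13 one of −0.14 (limma adjusted p = 0.158 and 0.233). Of 15 tested regulators of the switch from embryonic to adult globin, 12 were lower and 0 called (median −0.13). Bcl11a, a repressor of embryonic beta-globin genes, stood at 8.05, 6.64, 9.22 and 9.50 TPM in cKO and 10.02, 10.5, 13.5 and 9.86 TPM in control, without overlap (−0.36, limma adjusted p = 0.114). The DNA methyltransferase Dnmt1 (−0.21), the RNA-binding protein Igf2bp3 (−0.18) and Mbd3 of the NuRD complex (−0.15) had limma adjusted p between 0.0782 and 0.0988. Klf1 and Bcl11a were named after their values were seen, and Bcl11a, Dnmt1, Igf2bp3 and Mbd3 are also expressed outside blood and overlap other rows.

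Red cell structure was the only one of these groups with a called gene. Of 18 tested membrane and skeleton genes, 15 were lower, 2 of them called, and the median was −0.20. Among all tested rows 55.8% were lower and 4.23% were called lower. Tspan33, a tetraspanin of erythroid progenitors, fell from 4.73, 4.77, 5.61 and 7.69 TPM in control to 3.72, 3.99, 3.36 and 3.34 TPM in cKO (−0.52, limma adjusted p = 0.0454). Tmod1, a tropomodulin that caps actin in the red cell skeleton and in heart muscle, fell from 302, 323, 306 and 294 TPM in control to 249, 278, 268 and 263 TPM in cKO (−0.21, limma adjusted p = 0.0365), and its row overlaps 2 others. The call of Tspan33 was lost under 15 of 17 alternatives and that of Tmod1 under 13 of 18. Of 9 other erythroid genes tested, 8 were lower and 0 called (median −0.08), among them Hemgn (−0.73, limma adjusted p = 0.161), Eif2ak1, the heme-regulated kinase (−0.13), and Bpgm, which makes the hemoglobin ligand bisphosphoglycerate (−0.12). Of 8 tested genes of heme and hemoglobin clearance, 6 were lower and 0 called (median −0.04). They included Blvra, biliverdin reductase (−0.20), Ftl1, ferritin light chain (−0.20), and the iron exporter Slc40a1 (0.16). Cd163, the hemoglobin scavenger receptor of macrophages, was listed at 0 in all 8 libraries.

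Markers of other blood and heart cells were measured in the same libraries, against a background of 4.23% of all tested rows called lower, 2.16% called higher and 55.8% with a change below 0. Of 9 tested megakaryocyte and platelet genes 8 were lower and 1 called (Gp1bb, −0.70, limma adjusted p = 0.0353, a row that overlaps Septin5), with a median of −0.46. The 10 genes of that list summed to 22.6 to 33.2 TPM in cKO and 33.3 to 55.1 TPM in control. Gp5 (−0.54) and Ppbp (−0.59), a platelet glycoprotein and a platelet chemokine, did not pass (limma adjusted p = 0.0729 and 0.0752), though Ppbp passed without cKO library 2 or without control library 2 (smaller limma adjusted p = 0.0414). Of 8 tested macrophage genes 6 were higher and 0 called (median 0.38; list sums 21.5 to 46.1 TPM in cKO and 21.6 to 36.2 TPM in control), led by Csf1r (0.47), C1qb (0.57) and Mrc1 (0.39). Without cKO library 4, Csf1r (0.67, limma adjusted p = 0.0120) and C1qb (0.85, limma adjusted p = 0.0194) passed. Of 6 tested blood progenitor genes 5 were higher and 1 called, Mecom, which endothelium also expresses (0.44, limma adjusted p = 0.0106, a row that overlaps 3 others; list sums 134 to 155 TPM in cKO and 122 to 135 TPM in control). The other genes named by rule there, Gata2 (0.20) and Cd34 (0.13), did not pass. Cd34 (83.9 to 100 TPM over the 8 libraries) made up most of that list sum. Ptprc and Runx1, of the same list, had a mean under 1 TPM and were not tested. These values do not tell blood progenitors from endothelium. Of 10 tested endothelial and endocardial genes 8 were higher and 0 called (median 0.13; list sums 998 to 1137 TPM in cKO and 971 to 1023 TPM in control), with Npr3 (0.25), Tek (0.19) and Erg (0.16) nearest to the threshold. Npr3 passed under 2 of 18 alternatives (smallest limma adjusted p = 0.0363) and Tek under 1 (limma adjusted p = 0.0433). Of 15 cardiomyocyte genes 13 were lower and 1 called, the heart transcription factor Nkx2-5 (−0.48, limma adjusted p = 0.0453; median −0.06), and neither Nppa (0.44) nor Myh6 (−0.18) passed. The call of Nkx2-5 was lost under 14 of 18 alternatives and that of Gp1bb under 8 of 17. The part of these markers in the globin shares was not tested.

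Other members of the globin fold were nearly absent, with 1 exception. Hbb-bh2 and the theta genes Hbq1a and Hbq1b had a mean under 1 TPM, as had cytoglobin (Cygb) and neuroglobin (Ngb), and the highest single value among these 5 was 1.53 TPM, for Hbq1b in control library 4. Mb, myoglobin, the oxygen store of heart muscle (chr15:77015487-77050668), stood at 176, 174, 189 and 155 TPM in cKO libraries 1 to 4 and 194, 231, 221 and 231 TPM in control libraries 1 to 4. It fell without overlap between groups (−0.34, SE 0.0731, limma adjusted p = 0.0283), though the row overlaps Apol6 and the call was lost under 11 of 18 alternatives. Over all 18 alternatives its limma adjusted p ran from 0.0231 to 0.0985. Within a group its SD was 13.9 TPM in cKO and 17.1 TPM in control (n = 4).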

How the data were processed

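The data are RNA levels of embryonic ventricles (embryonic day 11.5) in 4 cKO and 4 control libraries, grouped by sample titles. The authors deposited 1 table of TPM values over 52778 rows, in which each library sums to 1000000 within rounding. The submitters' processing notes name FastQC, Trim Galore 0.6.7, HISAT2 2.2.1, StringTie 2.2.1, featureCounts, DESeq2 and the build GRCm38, without their roles. The annotation, the use of strand, the transcript length behind TPM and the treatment of reads that match several genes are not given in the sources used here. The labels disagree on the library kit (stranded mRNA or ribosomal RNA depletion). They call the replicates biological and do not tie embryos to litters, so p-values measure the spread between these samples.

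Of 49632 rows on primary chromosomes, 49593 were found in the RefSeq table of GRCm38.p6, 49592 with the same start and end. TPM was analysed as log2(TPM + 1) with limma 3.58.1 in R 4.3.3 (lmFit, eBayes with a trend, group as the only term, two-sided) over 15541 rows with a mean of at least 1 TPM, with Benjamini-Hochberg adjustment over all of them. Fold changes on that scale understate those of low genes. The 5 shares were tested by exact two-sided permutation over 70 assignments, adjusted over the 5. Alternatives were another pseudocount, filter, scaling or variance model, a replicate block, a red cell score as a covariate, log2 odds for shares, and leaving out each library. The procedure was tested on simulated data. Figures were drawn with matplotlib 3.10.9. Named genes were the 7 globins, Rps19bp1, other globin-fold genes, the 3 smallest p and any call of each list, and the 10 rows most like summed globin; results of some of these genes are not reported here. The members and the 13 lists were chosen with earlier results of these data known.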

Additional observations from a re-analysis of the deposited data

Results flagged for a closer look

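In 126 sets of 4 libraries of one group, the highest or lowest library was compared with its nearest neighbour, and 7 stood apart by Dixon's criterion at 4 samples (the gap as a share of the group's range is given for each). Chance flags about 1 in 20, or 6.3 here. Within the globins, cKO library 3 had an embryonic share of 63.7% of globin TPM, below the other 3 cKO libraries (0.837). In the same library Hbb-bs took 62.6% of the Hbb-bs and Hbb-bt sum (0.917). In control library 3, Hba-a1 took 75.0% of the Hba-a1 and Hba-a2 sum (0.892). Among other blood genes, Hemgn stood at 11.8 TPM in control library 4, the library with the most globin (0.847), and Bpgm at 28.7 TPM, its lowest control value, in control library 3 (0.876). Slc40a1 stood highest in cKO library 1 at 7.11 TPM (0.900). Csf1r stood lowest in cKO library 4 at 3.70 TPM (0.899).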

How the results depend on the processing

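None of the 7 globins passed limma's test under any of 18 alternatives (adjusted p 0.151 to 0.980), and 115 of 126 values kept their direction. With the red cell membrane score as a covariate all 7 turned positive: Hba-x 0.35, Hba-a1 0.24, Hba-a2 0.62, Hbb-y 0.30, Hbb-bh1 0.080, Hbb-bs 0.30 and Hbb-bt 0.32. So did Gata1 0.17, Klf1 0.29, Slc4a1 0.29, Hsd3b6 0.30, Arrdc3 0.059, Taf9 0.0073, Trim10 0.31, Car2 0.17, Fth1 0.081 and Alas2 0.12. Slc4a1 is itself part of that score. Leaving out 1 library at a time gave ranges that crossed 0 for Hba-x (−0.62 to 0.0245), Hba-a2 (−0.32 to 0.31), Hbb-bs (−0.30 to 0.16), Gata1 (−0.29 to 0.0423), Klf1 (−0.47 to 0.073), Slc4a1 (−0.62 to 0.0004), Hsd3b6 (−0.40 to 0.0848), Trim10 (−0.22 to 0.15) and Fth1 (−0.11 to 0.0257). Quantile normalization turned Fth1 to 0.017. The cause of these turns was not tested.

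Of the heme and erythroid genes 2 were called, 1 with a pseudocount of 5, a minimum of 5 TPM, quantile normalization or the covariate, 2 with a pseudocount of 0.1, 0 under the other settings with all libraries and 0 to 1 without a library. Over all rows 994 were called, 347 without a filter, 609 without a variance trend, 420 with the replicate block, 450 with the covariate and 390 to 938 without a library. The calls were 336 higher and 658 lower as deposited, 383 and 380 after quantile normalization, 383 and 419 after median-ratio scaling, and 392 and 394 after rescaling without mitochondrial and globin rows.

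All 5 shares kept direction under each alternative. None passed after adjustment over the 5, except that without control replicate 2 the embryonic, Hbb-bh1 and alpha shares did (exact permutation, adjusted p = 0.0476). In that setting the Hbb-bh1 share also reached the smallest possible p, which lowered the adjusted p of the embryonic and alpha shares. Without 1 library their differences ran from −1.19 to −0.206 points (embryonic beta), −0.843 to −0.137 (Hba-x), −1.55 to −1.02 (embryonic), −3.43 to −2.08 (Hbb-bh1) and 1.24 to 1.58 (alpha). Deviations of same-numbered libraries were weakly correlated (−0.0891 to 0.0674), and 2 of 4 cKO libraries were best matched by their own number. With 4 libraries per group this cannot decide whether the numbers pair samples. With the replicate block no globin was called, and the embryonic and alpha shares had a paired permutation p of 0.125 (adjusted p = 0.208), the smallest 4 pairs allow. TPM keeps no depth, so no counting error could be given.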
